A study of Mus musculus with 8 samples.

Results

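The E2F transcription factors and the pocket proteins that bind them were described in 4T1 cells, a line from a BALB/c mammary tumor that serves as a model of triple-negative breast cancer. The 10 genes were listed by name, as the E2F genes other than E2f6 and the 3 genes of the retinoblastoma protein family, by a rule that uses no measured value but was set with earlier results of these data known: E2f1, E2f2, E2f3, E2f4, E2f5, E2f7, E2f8, Rb1, Rbl1 and Rbl2. They are 10 of the 54532 genes in the count tables, and all 10 passed the filter on low counts. RNA sequencing compared cells carrying a short hairpin RNA against MCT-1 (shMCT-1) with cells carrying a scramble control, each given control IgG or anti-IL-6R, an antibody that blocks the mouse IL-6 receptor, at 100 ng/ml. Both backgrounds under both treatments gave 4 groups of 2 libraries, all treated for 48 h, and all cells were kept in 6 µg/ml puromycin. The knockdown rested on 1 hairpin sequence in a selected line, and whether that line was a clone or a pool was not stated in the sources used here. The study calls the replicates independent and biological without saying how they were separated, so the p-values measure the spread between these libraries.

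E2F factors switch on genes for DNA synthesis as cells pass from G1 into S phase. The activators E2F1, E2F2 and E2F3 are held back by the retinoblastoma protein, encoded by Rb1, until cyclin D and cyclin E kinases phosphorylate it, whereas E2F4 and E2F5 mostly work with the related proteins p107 (Rbl1) and p130 (Rbl2) to keep the same promoters silent. E2F7 and E2F8 need neither a pocket protein nor a DP partner to repress, and several of these genes, E2f1 and Rbl1 among them, are known E2F targets themselves.

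shMCT-1 cells held less transcript of most of these genes. Rbl1 was lower by 1.88-fold, and E2f3, E2f7 and E2f8 were lower in both treatments. E2f5 was the only member called higher, by 1.48-fold in shMCT-1 across both treatments. E2f4, the most abundant of the 10 per length, differed by 1.08-fold and was not called. Anti-IL-6R changed none of the 10 genes past the threshold in either background, where 0 of all 12704 genes tested were called.

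Promoter sequences of the members are shown first, because several of these genes are E2F targets themselves. RefSeq (GRCm38.p6) promoters, from 250 bases before to 50 bases after a start site, were at hand for 7 of the 10 members, with none for E2f4, E2f5 and Rb1. The words TTTCCCGC, TTTCGCGC, TTTGCCGC and TTTGGCGC were searched on both strands, and they stood in at least 1 promoter of 4 of the 7 members, E2f2, E2f3, E2f7 and Rbl1, against 2.60% of all 27025 genes in the table. No match in the windows of E2f1, E2f8 and Rbl2 says only that these letters are not there. The E2f1 window lies wholly inside the gene as GENCODE bounds it, downstream of its annotated 5′ end, so the bases upstream of that end were not searched. Capitals mark the matches in the 250 bases before the start site of Rbl1 (chr2:157204535-157204784, minus strand), E2f3 (chr13:29986064-29986313, minus strand) and E2f7 (chr10:110745189-110745438, plus strand).

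Rbl1: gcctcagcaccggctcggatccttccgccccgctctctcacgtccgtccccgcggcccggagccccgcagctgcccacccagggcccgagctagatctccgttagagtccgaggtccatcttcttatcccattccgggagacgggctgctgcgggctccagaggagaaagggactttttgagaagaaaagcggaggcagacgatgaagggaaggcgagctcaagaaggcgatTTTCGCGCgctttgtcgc

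E2f3: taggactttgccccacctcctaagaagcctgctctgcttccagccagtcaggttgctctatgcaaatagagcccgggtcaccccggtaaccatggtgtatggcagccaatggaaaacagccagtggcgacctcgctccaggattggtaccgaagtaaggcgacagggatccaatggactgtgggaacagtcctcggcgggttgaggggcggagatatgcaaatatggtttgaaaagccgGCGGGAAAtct

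E2f7: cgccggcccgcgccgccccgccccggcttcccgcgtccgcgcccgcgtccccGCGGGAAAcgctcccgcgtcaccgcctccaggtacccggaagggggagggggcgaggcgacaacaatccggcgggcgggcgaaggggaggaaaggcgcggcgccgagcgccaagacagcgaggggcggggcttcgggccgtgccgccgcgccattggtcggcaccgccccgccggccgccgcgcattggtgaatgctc

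Counted from the start site, the Rbl1 match spanned positions −18 to −11, on the strand of the gene. The E2f3 match spanned −11 to −4 and the E2f7 match −198 to −191, both on the opposite strand. The E2f2 match spanned 40 to 47, downstream of its RefSeq start but upstream of the start that GENCODE gives the gene, within chr4:136172302-136172323 on the plus strand, and is given with its flanks because E2f2 was not called lower.

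E2f2: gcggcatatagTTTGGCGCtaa

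TTTGAA, the core of the cell cycle homology region through which the MuvB complex acts, was found in 1 promoter each of E2f2, E2f3, E2f8 and Rbl2, and 20.2% of all genes in the table held it. In E2f3 it spanned −23 to −18, upstream of the E2F-type match and not overlapping it, and in E2f8 it spanned −20 to −15 on the opposite strand. The matches are a description of letters and not of binding.

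Library totals ran from 19839255 to 33063535 counts. The 4 shMCT-1 libraries (up to 23448547 counts) were all smaller than the 4 scramble libraries (from 24100056), so that 1 CPM (a count per 1000000 counts of its library) stood for 19.8 to 33.1 counts. The knockdown itself was seen in Mcts1, which encodes MCT-1. It stood between 11.8 and 15.4 CPM in the scramble libraries and between 4.92 and 6.70 CPM in the shMCT-1 libraries, a fall of 1.10 on the log2 scale (SE 0.12, edgeR adjusted p = 1.13e-05). Keratin genes of an epithelial line were abundant, with Krt8 at 1085 CPM in scramble and 1337 CPM in shMCT-1 on average, and Epcam averaged 4.37 and 51.3 CPM. Cd3e, Adgre1 and Pgr were at 0 in all 8 libraries and Ptprc reached at most 0.137 CPM. Pecam1, Cdh5, Col1a1 and Dcn reached at most 1.66 CPM, while Pdgfra averaged 15.6 and 13.5 CPM, and Esr1, which the line is described as lacking, averaged 3.09 and 4.46 CPM. Of the proliferation markers, Mki67 averaged 980.0 CPM in scramble and 393 CPM in shMCT-1, Top2a 834 and 639 CPM, and Pcna 389 and 257 CPM, while Mcm2 averaged 265 and 299 CPM. Mki67, Top2a and Pcna were thus lower on average in shMCT-1, like most of the members, and Mcm2 was not. Their part in the members' differences was not tested. In RNA from whole cultures, fewer cells in a cycle phase and less RNA of a gene per cell cannot be told apart. The pair of shMCT-1 + anti-IL-6R libraries stood apart from each other for Rb1, Rbl2, E2f7 and E2f8, with replicate 1 the lower in each case. Replicate 1 was instead the higher for E2f2 (27.3 and 21.8 CPM) and E2f1 (65.5 and 58.7 CPM).

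The first question was how the genes differed between shMCT-1 and scramble. Across both treatments, 7 of the 10 members were called at an adjusted p under 0.05 in edgeR, 6 lower and 1 higher. Of all 12704 genes tested, 69.0% were called, 34.0% lower and 35.0% higher, so a call by itself was common here. Within IgG 6 of the 10 were called, 5 lower and 1 higher, where 54.4% of all genes were called (26.2% lower and 28.3% higher). Within anti-IL-6R there were also 5 lower and 1 higher, where 54.3% of all genes were called (27.3% lower and 26.9% higher). The median log2 fold change of the 10 members was −0.39 within IgG, −0.35 within anti-IL-6R and −0.42 across both treatments, beside a median of 0.01 over all tested genes in each. E2f3, E2f7, E2f8 and Rbl1 were called lower, and E2f5 higher, in both of the within-treatment comparisons, where 22.7% of all tested genes were called lower in both and 23.6% higher in both. These comparisons share no libraries but take their spread from the same fit.

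**Figure D1:**
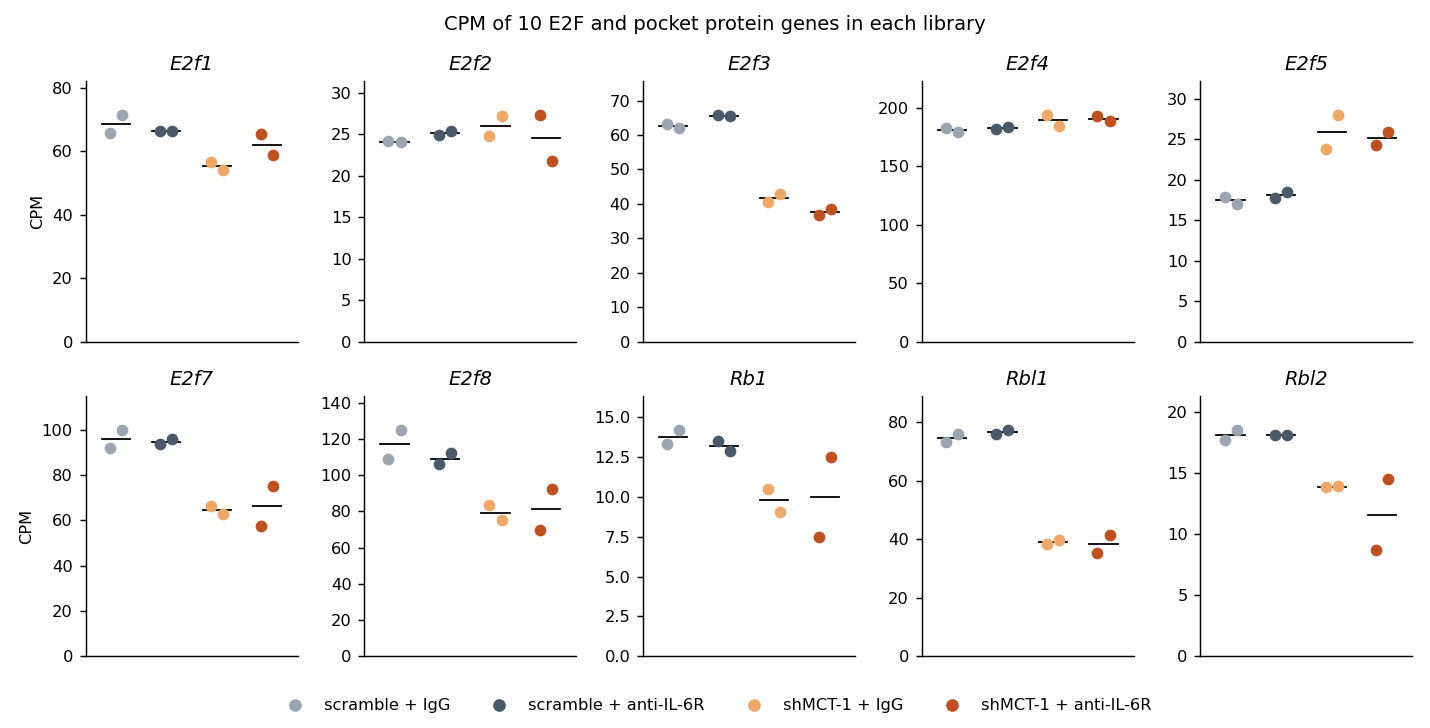
CPM of the 10 genes (y axis, from 0) in each of the 8 libraries, 1 panel a gene; dots are libraries colored by group and bars are means of 2 libraries. Rbl1 and E2f3 form separate bands, 73.2 to 77.3 CPM in scramble against 35.4 to 41.4 CPM in shMCT-1 for Rbl1, while E2f2 overlaps and E2f5 is the gene that is clearly higher in shMCT-1.

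The pocket protein genes were all lower across both treatments. Gene positions are those of GRCm38. Rbl1 (ENSMUSG00000027641, chr2:157145893-157204534, minus strand), which encodes p107, the family member that rises in cycling cells, measured 73.2 and 75.8 CPM in scramble + IgG, 75.8 and 77.3 CPM in scramble + anti-IL-6R, 38.3 and 39.7 CPM in shMCT-1 + IgG, and 35.4 and 41.4 CPM in shMCT-1 + anti-IL-6R. All 4 shMCT-1 libraries lay far below all 4 scramble libraries. The log2 fold change was −0.89 within IgG (SE 0.094, adjusted p = 7.22e-05), −0.94 within anti-IL-6R (SE 0.094, adjusted p = 5.04e-05) and −0.91 across both (SE 0.062, adjusted p = 5.41e-07). Among all tested genes, 10.3% had a lower value.

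Rbl2 (ENSMUSG00000031666, chr8:91070057-91123844, plus strand), encoding p130, the partner of E2F4 in resting cells, measured 17.7 and 18.5 CPM in scramble + IgG and 18.1 CPM in both scramble + anti-IL-6R libraries. It measured 13.8 and 13.9 CPM in shMCT-1 + IgG, and 8.67 and 14.5 CPM in shMCT-1 + anti-IL-6R. Both backgrounds stood apart, but the lowest value was that of 1 library. Rbl2 was called lower across both treatments (log2 −0.46, SE 0.13, adjusted p = 0.00774) and within anti-IL-6R (−0.58, SE 0.18, adjusted p = 0.0222), and was not called within IgG (−0.34, SE 0.18, adjusted p = 0.137). Without shMCT-1 + anti-IL-6R replicate 1 its value within anti-IL-6R was −0.26 (adjusted p = 0.0949), and without either scramble + anti-IL-6R library the adjusted p was 0.0763 or 0.0771. Without either shMCT-1 + anti-IL-6R library, Rbl2 was called within IgG, with adjusted p = 0.0101 and 0.0106.

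Rb1 (ENSMUSG00000022105, chr14:73183673-73325822, minus strand), the founding tumor suppressor of the family, measured 13.3 and 14.2 CPM in scramble + IgG, 13.5 and 12.9 CPM in scramble + anti-IL-6R, 10.5 and 9.08 CPM in shMCT-1 + IgG, and 7.46 and 12.5 CPM in shMCT-1 + anti-IL-6R. The highest shMCT-1 library came close to the lowest scramble library. The fall was called only across both treatments (log2 −0.39, SE 0.13, adjusted p = 0.022), and not within IgG (−0.45, SE 0.20, adjusted p = 0.0803) or within anti-IL-6R (−0.34, SE 0.20, adjusted p = 0.169). The call across both treatments was lost without scramble + IgG replicate 2 (adjusted p = 0.0508), without shMCT-1 + IgG replicate 2 (adjusted p = 0.0706) and without shMCT-1 + anti-IL-6R replicate 1 (adjusted p = 0.0566). The value within anti-IL-6R moved to −0.75, with adjusted p = 0.00427, without shMCT-1 + anti-IL-6R replicate 2, and to −0.01 without replicate 1. Within IgG, Rb1 was called without either shMCT-1 + anti-IL-6R library, with adjusted p = 0.00996 and 0.0109.

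Rb1 and Rbl2 share exonic bases with genes on the other strand, 488 with Rcbtb2 and 408 with Lpar6 for Rb1, and 693 with Aktip and 892 with Gm45464 for Rbl2. The strand setting of the counting is not given in the sources used here, so the part of these reads in their counts was not tested. Rbl1 has no such overlap in the annotation.

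The activator genes did not move as a group. E2f3 (ENSMUSG00000016477, chr13:29906575-29986063, minus strand), whose protein is needed for entry into S phase in many cell types, measured 63.2 and 62.0 CPM in scramble + IgG, 65.8 and 65.5 CPM in scramble + anti-IL-6R, 40.6 and 42.9 CPM in shMCT-1 + IgG, and 36.8 and 38.4 CPM in shMCT-1 + anti-IL-6R. The backgrounds were widely separate and the libraries of each group close together. E2f3 was lower by 0.54 on the log2 scale within IgG (SE 0.081, adjusted p = 0.000469), by 0.75 within anti-IL-6R (SE 0.081, adjusted p = 7.91e-05) and by 0.64 across both (SE 0.061, adjusted p = 5.31e-06), where 16.4% of all tested genes had a lower value.

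E2f1 (ENSMUSG00000027490, chr2:154559407-154569892, minus strand), the activator best known also for driving apoptosis genes, measured 65.8 and 71.4 CPM in scramble + IgG and 66.3 CPM in both scramble + anti-IL-6R libraries. It measured 56.5 and 54.2 CPM in shMCT-1 + IgG and 65.5 and 58.7 CPM in shMCT-1 + anti-IL-6R. In CPM on unadjusted totals the backgrounds did not overlap, yet 1 shMCT-1 library came within 1 CPM of the scramble range. With the TMM factors of the fit they do overlap. E2f1 was called lower within IgG (log2 −0.27, SE 0.094, adjusted p = 0.0358), but not within anti-IL-6R (−0.039, SE 0.094, adjusted p = 0.741) or across both (−0.15, SE 0.071, adjusted p = 0.0762). The call within IgG was lost without scramble + IgG replicate 2 (adjusted p = 0.161), scramble + anti-IL-6R replicate 1 (0.0728) or 2 (0.0734), or shMCT-1 + IgG replicate 1 (0.0967) or 2 (0.165). Across both treatments E2f1 was called without shMCT-1 + anti-IL-6R replicate 1 (log2 −0.21, adjusted p = 0.018).

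E2f2 (ENSMUSG00000018983, chr4:136172394-136196057, plus strand), the third activator, measured 24.2 and 24.0 CPM in scramble + IgG, 24.9 and 25.4 CPM in scramble + anti-IL-6R, 24.8 and 27.2 CPM in shMCT-1 + IgG, and 27.3 and 21.8 CPM in shMCT-1 + anti-IL-6R. The ranges of the backgrounds overlapped, and no comparison called it (across both treatments log2 0.086, SE 0.081, adjusted p = 0.364). It was called higher across both treatments only without shMCT-1 + anti-IL-6R replicate 2 (log2 0.16, adjusted p = 0.0466).

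E2f4 and E2f5 encode the E2F proteins that lean on pocket proteins for repression. E2f4 (ENSMUSG00000014859, chr8:105297663-105305370, plus strand) measured 183 and 179.7 CPM in scramble + IgG, 182 and 184 CPM in scramble + anti-IL-6R, 194 and 185 CPM in shMCT-1 + IgG, and 193 and 189 CPM in shMCT-1 + anti-IL-6R. The shMCT-1 libraries were all above the scramble libraries by a narrow gap. The difference was 0.11 across both treatments (SE 0.049, adjusted p = 0.0618) and was not called in any of the 3 comparisons. Leaving out scramble + IgG replicate 2 gave 0.12 across both treatments with adjusted p = 0.0463.

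E2f5 (ENSMUSG00000027552, chr3:14578641-14606309, plus strand) measured 17.9 and 17.0 CPM in scramble + IgG, 17.8 and 18.5 CPM in scramble + anti-IL-6R, 23.8 and 28.0 CPM in shMCT-1 + IgG, and 24.3 and 25.9 CPM in shMCT-1 + anti-IL-6R. Every shMCT-1 library was above every scramble library. E2f5 rose by 0.61 within IgG (SE 0.11, adjusted p = 0.00104), by 0.52 within anti-IL-6R (SE 0.11, adjusted p = 0.00235) and by 0.57 across both (SE 0.071, adjusted p = 3.83e-05), and 83.6% of all tested genes had a lower value. Its exons share 26 bases with 1810022K09Rik on the other strand.

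The atypical repressors E2f7 and E2f8, which close the E2F program late in S phase and dampen E2f1, were both lower in shMCT-1. E2f7 (ENSMUSG00000020185, chr10:110745439-110787384, plus strand) measured 92.2 and 100.0 CPM in scramble + IgG, 93.6 and 96.1 CPM in scramble + anti-IL-6R, 66.2 and 62.8 CPM in shMCT-1 + IgG, and 57.6 and 75.3 CPM in shMCT-1 + anti-IL-6R. The 2 backgrounds did not overlap. E2f7 was called lower within IgG (log2 −0.53, SE 0.12, adjusted p = 0.00427), within anti-IL-6R (−0.46, SE 0.12, adjusted p = 0.00946) and across both (−0.50, SE 0.08, adjusted p = 0.000245). Within anti-IL-6R the call was lost without scramble + anti-IL-6R replicate 2 (adjusted p = 0.0575) and without shMCT-1 + anti-IL-6R replicate 1 (log2 −0.27, adjusted p = 0.0548).

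E2f8 (ENSMUSG00000046179, chr7:48866429-48881596, minus strand) measured 109 and 125 CPM in scramble + IgG, 106 and 112 CPM in scramble + anti-IL-6R, 83.7 and 75.0 CPM in shMCT-1 + IgG, and 69.9 and 92.6 CPM in shMCT-1 + anti-IL-6R. The backgrounds did not overlap, and the spread within groups was wider than for E2f7. E2f8 was called lower within IgG (log2 −0.52, SE 0.13, adjusted p = 0.0086), within anti-IL-6R (−0.36, SE 0.13, adjusted p = 0.0412) and across both (−0.44, SE 0.091, adjusted p = 0.00135). Within IgG the call was lost without scramble + IgG replicate 2 (0.0616) or shMCT-1 + IgG replicate 2 (0.0753). Within anti-IL-6R it was lost without scramble + anti-IL-6R replicate 1 (adjusted p = 0.0972) or 2 (0.17), shMCT-1 + IgG replicate 1 (0.0593) or 2 (0.0592), or shMCT-1 + anti-IL-6R replicate 1 (0.286, with log2 −0.17). E2f8 shares 610 exonic bases with Gm2788 and E2f7 86 bases with 1700020G17Rik, both on the other strand.

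Each of the 8 libraries was left out in turn. Across both treatments the log2 fold change then ranged from −0.95 to −0.87 for Rbl1 and from −0.68 to −0.61 for E2f3. For E2f5 it ranged from 0.51 to 0.60, for E2f7 from −0.58 to −0.43 and for E2f8 from −0.54 to −0.38. The ranges were wider for Rbl2, from −0.58 to −0.31, and for Rb1, from −0.56 to −0.27. In CPM, 7 of the 10 members were lower and 2 higher in all 4 shMCT-1 libraries than in all 4 scramble libraries, where 34.2% of all tested genes were lower and 29.9% higher in this way. These CPM use unadjusted totals. The TMM factors of the fit ran from 1.002 to 1.027 in scramble and from 0.976 to 0.9859 in shMCT-1 libraries. Scaled by them, the backgrounds overlap for E2f1 and Rb1, whose gaps in CPM were narrow.

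**Figure D2:**
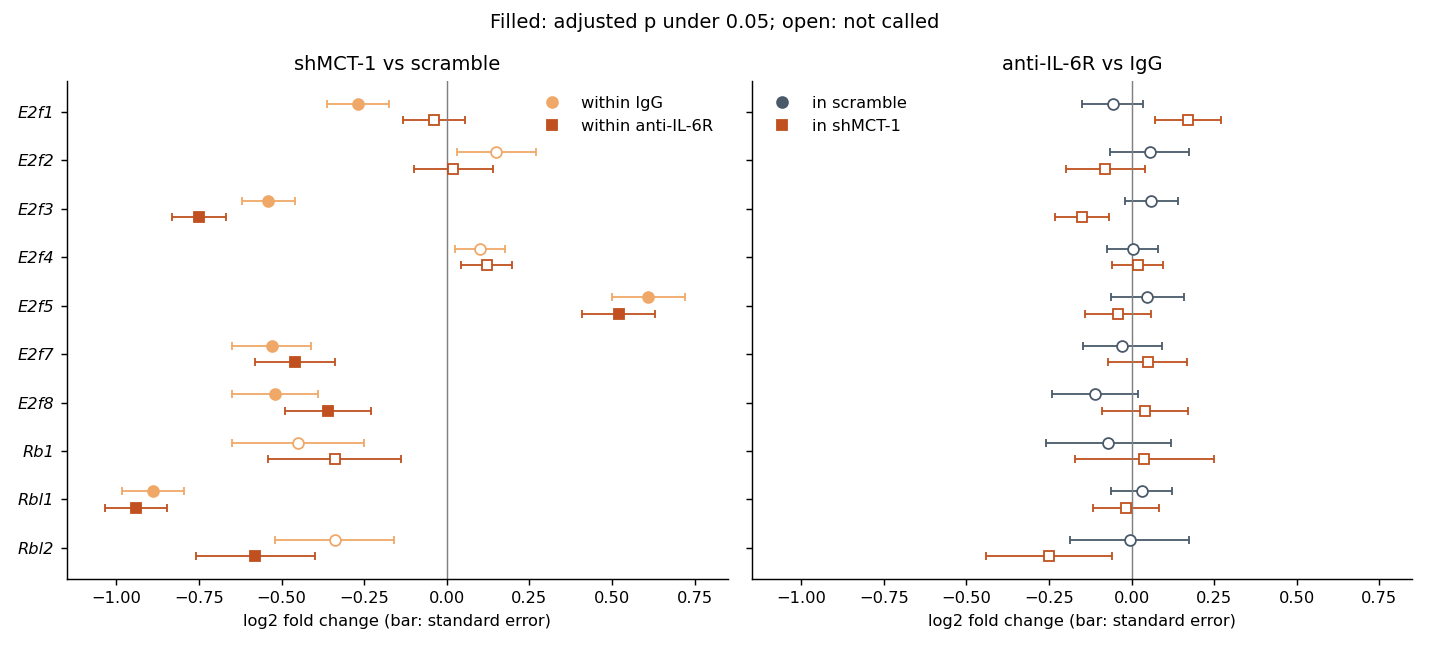
Log2 fold change (x axis) of each gene with its standard error, for shMCT-1 vs scramble within IgG and within anti-IL-6R (left) and for anti-IL-6R vs IgG in scramble and in shMCT-1 (right); filled symbols passed adjusted p under 0.05. Filled symbols appear only on the left, from −0.94 for Rbl1 to 0.61 for E2f5, and on the right every symbol is open, between −0.25 and 0.17.

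The second question was whether anti-IL-6R changed these genes. In scramble cells 0 of 12704 genes were called by edgeR (0%), and 0 of the 10 members had an unadjusted p under 0.05, where 166 of all genes (1.31%) had one. In shMCT-1 cells 0 genes were called, and 0 members and 505 of all genes (3.98%) had an unadjusted p under 0.05. Across both backgrounds the counts were 0 calls, 0 members and 355 of all genes (2.79%), and for the interaction of knockdown and antibody 0 calls, 0 members and 315 of all genes (2.48%). DESeq2 called 0 genes in scramble, 11 in shMCT-1, 1 across both backgrounds and 6 for the interaction, and edgeR's exact test 10 in scramble and 14 in shMCT-1. With no filter on low counts edgeR called 64 genes in scramble, 133 in shMCT-1, 73 across both backgrounds and 97 for the interaction, and without scramble + IgG replicate 1 it called 14 in scramble and 8 for the interaction. No member was called in any of these fits. Members' log2 fold changes lay between −0.11 (E2f8) and 0.06 (E2f3) in scramble and between −0.25 (Rbl2) and 0.17 (E2f1) in shMCT-1. A p above the threshold does not show that the levels were the same: for Rbl2 in shMCT-1 the approximate 95% interval ran from −0.62 to 0.12.

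In scramble cells both anti-IL-6R libraries were above both IgG libraries for 2 members, E2f2 and E2f3, and below for 0, where 16.7% of all genes were above and 13.4% below. In shMCT-1 cells E2f1 was above in both (65.5 and 58.7 against 56.5 and 54.2 CPM; log2 0.17, SE 0.10, adjusted p = 1) and E2f3 below (36.8 and 38.4 against 40.6 and 42.9 CPM; log2 −0.15, SE 0.083, adjusted p = 1), where 11.8% of all genes were above and 17.3% below. None of these differences passed the test. The interaction was 0.23 for E2f1 (SE 0.13), −0.20 for E2f3 (SE 0.11), −0.13 for E2f2 (SE 0.17) and −0.24 for Rbl2 (SE 0.26), each with adjusted p = 1.

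Compared per length, as CPM per kb of all annotated exons, E2f4 stood far above the rest, with a median of 74.3 in the 4 scramble libraries and 77.9 in the 4 shMCT-1 libraries. In scramble the order below it was E2f1 at 21, E2f8 at 20.2, Rbl1 at 12.6, E2f3 at 11.9, E2f7 at 10.5, E2f5 at 10.0, E2f2 at 5.03, Rbl2 at 2.40 and Rb1 at 2.23 CPM per kb. Ranges overlapped between E2f1 and E2f8, between E2f7 and E2f5 and between Rbl2 and Rb1, and the other neighbors were apart. In shMCT-1 E2f5 moved up to 14.1, level with E2f8 at 14.6 within their ranges, and Rbl1 dropped to 6.51, behind E2f3 at 7.27 and E2f7 at 7.16 with overlapping ranges. Scaled by the longest transcript instead, the median of E2f8 was ahead of that of E2f1, with ranges apart in scramble and overlapping in shMCT-1. E2f7 then stood ahead of Rbl1 and E2f3 in both backgrounds, though in shMCT-1 its median was ahead of Rbl1 by either length. In shMCT-1 Rbl1 at 8.02 also passed E2f3 at 7.74, with overlapping ranges. The order among these genes thus rests in part on the length used.

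The make-up of the E2F pool by transcript also differed between the backgrounds. E2f4 and E2f5 together took 53.2 to 55.6% of the summed CPM per kb of the 7 E2F genes in the scramble libraries and 62.2 to 63.9% in the shMCT-1 libraries. The activators took 24.6 to 25.1% and 20.5 to 22.9%, and E2f7 and E2f8 took 19.6 to 21.8% and 13.3 to 17.3%. The 3 pocket protein genes summed to 16.8 to 17.5 CPM per kb in scramble and 8.30 to 10.9 CPM per kb in shMCT-1. Rbl1 supplied 72.5 to 74.0% of that sum in scramble and 63.3 to 71.2% in shMCT-1. For each of these 5 sums and shares the backgrounds did not overlap, with the longest transcript as the length too.

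**Figure D3:**
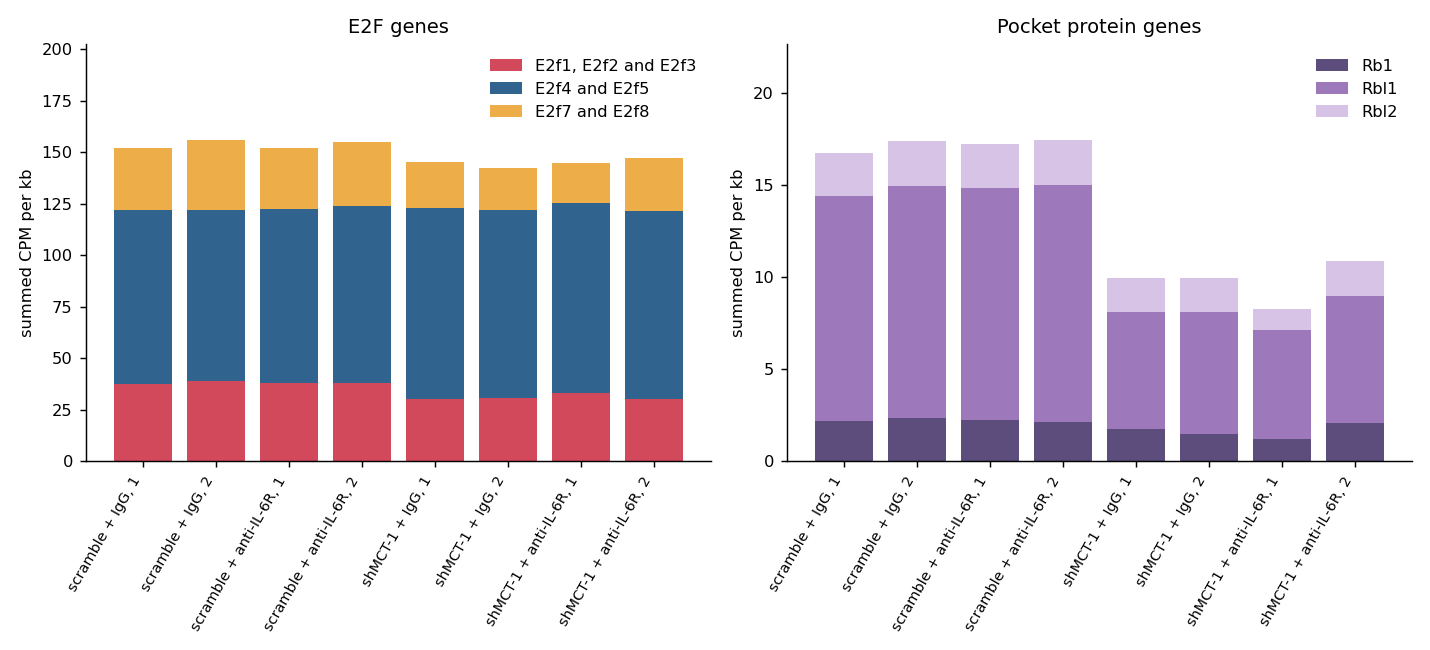
Summed CPM per kb of exons (y axis, from 0) in each library, for the E2F genes in 3 classes (left) and the 3 pocket protein genes (right); each stacked bar is 1 library, labelled by group and replicate. E2f4 with E2f5 is the largest class in every library, and the pocket protein sum is 16.8 to 17.5 in scramble and 8.30 to 10.9 in shMCT-1.

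The genes were also set beside their chromosomes, because the median of all tested genes on a chromosome was not 0 everywhere in shMCT-1 vs scramble. It was −0.37 on chromosome 2, which holds E2f1 and Rbl1, and −0.42 on chromosome 13, which holds E2f3, and between −0.08 and 0.20 on the other chromosomes with a member. Taken relative to its chromosome, Rbl1 was at −0.55 and E2f3 at −0.23, while E2f1 turned from −0.15 to 0.22. E2f7 was at −0.59, E2f8 at −0.55 and Rbl2 at −0.52, each further from 0 than without this step, and Rb1 moved from −0.39 to −0.59. E2f5 was at 0.46, nearer to 0, E2f4 moved from 0.11 to 0.053 and E2f2 from 0.086 to 0.17. The part of the chromosome in the members' differences was not tested.

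Tested genes within 2 Mb of each member, a window chosen after the chromosome medians were seen, gave a closer background. Of the 59 tested genes whose start lay within 2 Mb of that of Rbl1, 7 had a lower log2 fold change than Rbl1 and their median was −0.18. Around E2f1 the median of 59 genes was −0.40, below the value of E2f1 itself. Around E2f3 the median of 10 genes was −0.12 and 1 of them was lower, and around E2f5 the median of 5 genes was −0.31, opposite in sign to E2f5. Around E2f8 the median of 9 genes was −0.19 and 3 of them were lower than E2f8. For Rbl2 it was −0.11 over 7 genes, with 3 lower. For E2f7 it was 0.002 over 11 genes, with 3 lower, and for Rb1 0.12 over 13 genes, with 1 lower. For E2f2 and E2f4 it was 0.14 over 48 genes and 0.17 over 71 genes.

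**Figure D4:**
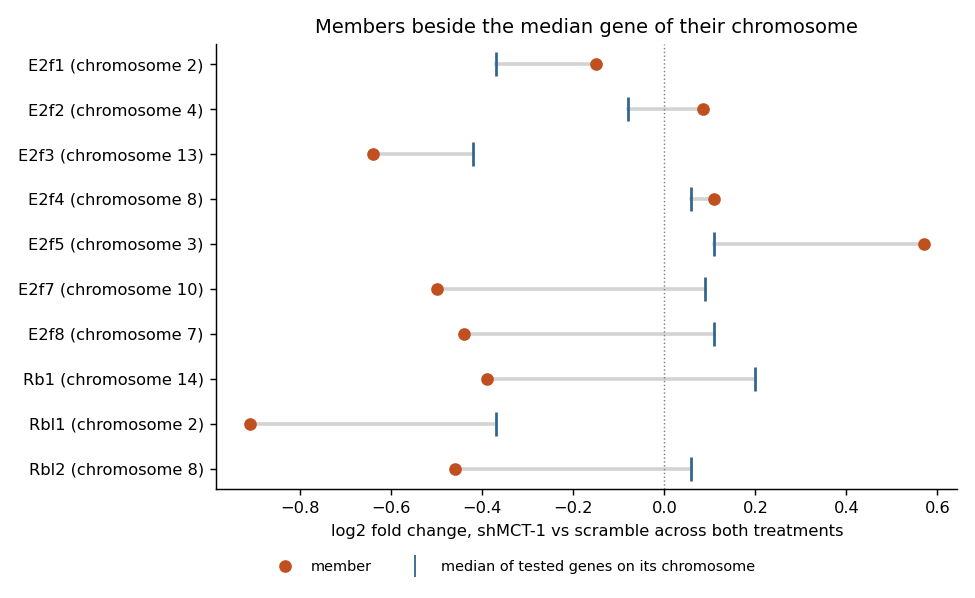
Log2 fold change across both treatments (x axis) of each gene (dots) and of the median tested gene on its chromosome (ticks); the dotted line marks 0. E2f1 lies to the right of its chromosome's tick at −0.37, whereas Rbl1, E2f3, E2f7, E2f8, Rb1 and Rbl2 lie to the left of theirs.

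Across the 8 libraries the genes whose centred log2 CPM was most like that of Rbl1 were Asxl1, Tsc1 and Dpp8, with root mean square differences of 0.025, 0.0346 and 0.0367. Asxl1 and Tsc1 are on chromosome 2 like Rbl1, and Dpp8 is on chromosome 9. Most like E2f5 were Pigf (0.0409), Bfar (0.0455) and Gtf2b (0.046), of which Gtf2b is on chromosome 3 with E2f5. Between the backgrounds the first 3 differed by −0.97 to −0.92 and the other 3 by 0.52 to 0.60 on the log2 scale. These lie near the values of Rbl1 and E2f5 because the genes were chosen by likeness over the same libraries.

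The wider pathway was mixed across both treatments, where the calls are read against the 34.0% lower and 35.0% higher of all tested genes. Of the DP partners, through which E2F1 to E2F5 bind DNA, both were called lower, Tfdp1 at −0.18 (SE 0.071) and Tfdp2 at −0.72 (SE 0.084), and Tfdp2 was also called lower within each treatment. Of the 8 cyclin D and E kinase genes, 4 were higher and 3 lower, with a median of 0.16. The 2 kinases that start the phosphorylation of pocket proteins went opposite ways, Cdk6 at −1.19 (SE 0.069) and Cdk4 at 0.66 (SE 0.06). The cyclins split too. Ccnd3 at 0.44 and Ccnd1 at 0.40 were higher, and Ccne2 at −0.38 and Ccnd2 at −0.30 were lower, the last 2 named here after their values were seen. Cdk6, Ccne2 and Ccnd2 were lower, and Cdk4, Ccnd3 and Ccnd1 were higher, within IgG and within anti-IL-6R as well.

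Among the CDK inhibitors, Cdkn2a and Cdkn2b, the products of which restrain CDK4 and CDK6, had 0 counts in all 8 libraries, and Cdkn1c had at most 2 counts. The 4 that were tested split evenly. Cdkn1a, which encodes p21, was higher at 0.58 (SE 0.069) and Cdkn2d at 0.47 (SE 0.086), and Cdkn2c was lower at −0.44 (SE 0.058) and Cdkn1b, which encodes p27, at −0.39 (SE 0.063).

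The MuvB group, which joins p130 and E2F4 in the DREAM repressor and later B-MYB and FOXM1, had 2 of 7 genes lower and 1 higher, with a median of −0.12. Lin54, its DNA-binding subunit, was at −0.57 (SE 0.078) and Foxm1 at −0.55 (SE 0.053). Of 9 corepressor genes 4 were higher and 2 lower, with a median of 0.013. The histone demethylase gene Kdm5a was at −1.11 (SE 0.10) and Sin3a at −0.42 (SE 0.074), and Ezh2 at 0.43 (SE 0.06) and the deacetylase gene Hdac1 at 0.36 (SE 0.063) were higher. Of 5 genes for the turnover of E2F and other cell cycle proteins 2 were higher and 2 lower, with Cks1b, a cofactor of the SKP2 ligase, at 0.83 (SE 0.10).

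The E2F target genes of the G1/S transition did not follow one direction. Of 30 tested, 8 were called higher, 10 lower and 12 not, with a median of −0.014 beside 0.01 over all tested genes. Within IgG the counts were 6 higher, 9 lower and 15 not, where 28.3% of all genes were higher and 26.2% lower. Within anti-IL-6R they were 7 higher, 6 lower and 17 not, where 26.9% of all genes were higher and 27.3% lower. Those called lower in both numbered 6, among them Pcna at −0.55 (SE 0.058), Brca1 at −0.53 (SE 0.076) and Pola1 at −0.49 (SE 0.091). Over all tested genes 22.7% were called lower in both and 23.6% higher in both. Those called higher in both were Mcm3, Mcm6, Cdc25a, Cdc45 and Fen1, named here after their values were seen.

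**Figure D5:**
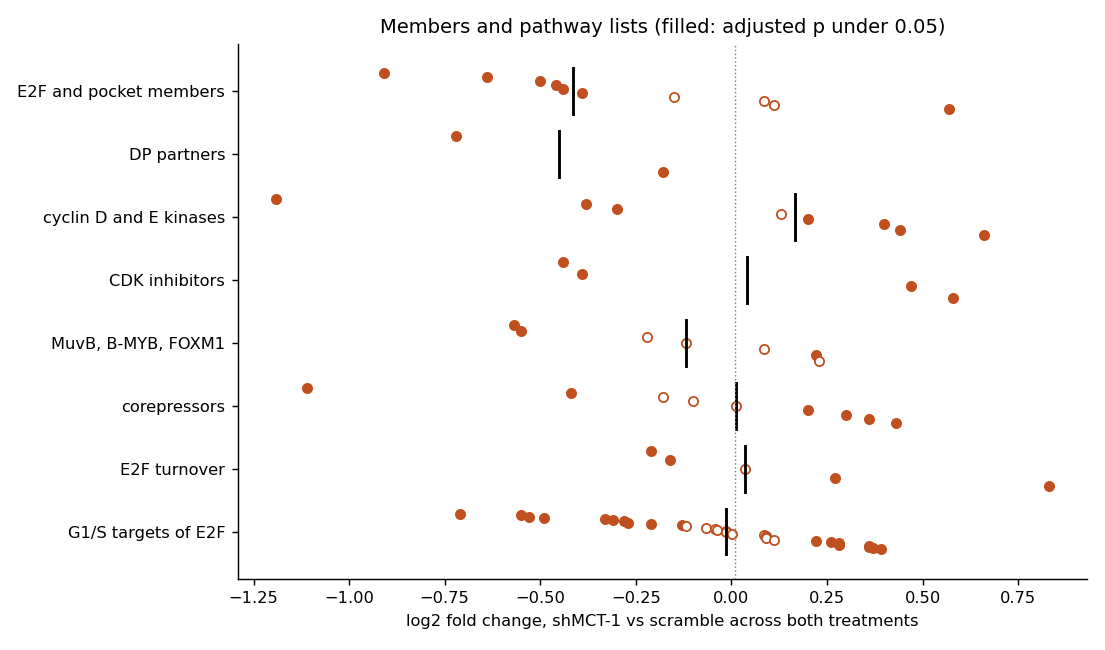
Log2 fold change of shMCT-1 vs scramble across both treatments (x axis) for the 10 members and each pathway list (rows); dots are genes, filled where adjusted p was under 0.05, black bars are medians and the dotted line is the median of all tested genes. The members' median lies at −0.42 and that of the 2 DP partners at −0.45. Those of the MuvB group, G1/S targets and corepressors lie at −0.12, −0.014 and 0.013. Those of the turnover genes, CDK inhibitors and cyclin D and E kinases lie at 0.036, 0.04 and 0.16.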

How the data were processed

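For RNA sequencing of 8 libraries, the authors deposited expected counts of 54532 genes, not normalized for depth or length. Their notes and methods name cutadapt 1.18 for trimming, STAR 2.7.0d with mm10 for alignment and RSEM with GENCODE M19 for counting. Fractional values made up 29.6% of those above 0, and all were rounded. Annotation was GENCODE M21 on GRCm38, in which 54495 identifiers were found without their version. Genes above 1 CPM in at least 2 of 8 libraries (12704) were tested with TMM and the quasi-likelihood test of edgeR 4.0.16 (R 4.3.3) in 1 fit of 4 group means, and with background and treatment as additive terms for effects "across both". p-values were Benjamini-Hochberg adjusted over all tested genes and called under 0.05, and standard errors came from the fold change and F statistic. CPM uses unadjusted totals. With 2 libraries against 2 an exact permutation test cannot go below p = 0.333, and with 4 against 4 below 0.0286, and none was used. The fit was tested on simulated counts.

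All members are named, and of each list the genes called in the same direction within IgG and within anti-IL-6R, at most 4 by size, though not every such gene is reported here. Further genes of the cyclin and G1/S lists were named after their values were seen. Likeness was taken for the members with the largest rise and fall. The members and lists were chosen with earlier results of these data known. Window medians around members were added after the data were seen. Replicates differed by more than counting error. Alternatives were RLE factors, DESeq2 1.42.0, 3 other filters, the exact test or a fit on 4 libraries, a replicate block, leaving out each library, chromosome-relative values and another length.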

Additional observations from a re-analysis of the deposited data

Results flagged for a closer look

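E2f3 drew attention because both anti-IL-6R libraries were above both IgG libraries in scramble cells (65.8 and 65.5 against 63.2 and 62.0 CPM) and below them in shMCT-1 cells (36.8 and 38.4 against 40.6 and 42.9 CPM). The test of this difference, the interaction in edgeR, gave a log2 value of −0.20 (SE 0.11, unadjusted p = 0.105, adjusted p = 1) and did not pass. Both anti-IL-6R libraries were above both IgG libraries for 16.7% of all tested genes in scramble cells. In shMCT-1 cells they were below for 17.3%.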

How the results depend on the processing

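With 2 libraries a group, the members of low count (Rb1 and Rbl2) and the small differences (E2f1, E2f2 and E2f4) are the least certain, and depth does not limit E2f4 or Rbl1. The count of members called for shMCT-1 vs scramble stayed within 1.5 times of that reported under every alternative run, except within anti-IL-6R when a library was left out, where it ranged from 3 to 7 against 6, with 3 without scramble + anti-IL-6R replicate 2 or shMCT-1 + anti-IL-6R replicate 1. Little sign of pairing by replicate number was seen (correlations of deviations between −0.0667 and 0.127), though such values cannot show that same-numbered libraries were handled apart. With a replicate block 6, 6 and 7 members were called within IgG, within anti-IL-6R and across both. No member was called for anti-IL-6R or the interaction under any alternative.

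Relative to its chromosome, E2f1 turned to 0.094 within IgG, 0.33 within anti-IL-6R and 0.22 across both. With a filter on 7 libraries E2f2 within anti-IL-6R turned to −0.005. Leaving out a library, values within anti-IL-6R ranged from −0.11 to 0.057 for E2f1 and from −0.14 to 0.19 for E2f2. For anti-IL-6R, E2f8 in scramble ranged from −0.22 to 0.006, and Rbl2 from −0.65 to 0.078 in shMCT-1 and from −0.23 to 0.019 across both backgrounds, and the interaction from −0.29 to 0.046 for E2f2 and from −0.64 to 0.095 for Rbl2. Over all members, 58 of 600 alternative values for anti-IL-6R or the interaction changed sign, with 0 called.

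E2f1 within IgG was not called with no filter (adjusted p = 0.0909) or filterByExpr (0.0515). E2f8 within anti-IL-6R was not called with filterByExpr (0.054) or a fit of 4 libraries (0.0558), nor Rbl2 with the latter (0.0534). Calls were also gained. Within IgG, 8 members were called by the exact test and by the fit of 4 libraries, with Rb1 (0.012 and 0.0249) and Rbl2 (0.0201 and 0.0283) added, and Rb1 was called with no filter (0.0209). Across both treatments 8 were called with filterByExpr, with E2f4 added (0.0394), and with the filter on 7 libraries, with E2f1 added (0.0461). The causes were not tested.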
